A study of Mus musculus with 4 samples.

Results

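The glycolytic enzymes described here are the transcripts of 10 mouse genes, found by their symbols among the 32285 genes of the deposited matrices. They are the hexokinase genes Hk1, Hk2 and Hk3, the ADP-dependent glucokinase gene Adpgk, and Pfkp, Aldoa, Tpi1, Pgk1, Pkm and Ldha, which act further along the pathway. Aldoa is the name of 2 gene entries, and the one with 72462 unique molecular identifiers (UMIs, counted RNA molecules) over all cells analysed was used in place of the one with 23. They were read in 4 libraries of single spleen cells, each made in droplets from 1 female mouse of the C57BL/6J strain after lysis of red cells. The D3TA mice, of which there were 2, were heterozygous for a constitutive, body-wide knock-in made with CRISPR/Cas9, in which threonine 283 of cyclin D3 (Ccnd3) is replaced by alanine. The WT mice, also 2, were matched to them in age and sex. One mouse of each genotype was 12 and the other 16 months old, ages at which the D3TA animals have a myeloproliferative neoplasm, and the labels do not say which library came from which age. The allele is not limited to any cell type, so a difference within neutrophils can have its source in other cells.

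The libraries D3TA replicate 1, D3TA replicate 2, WT replicate 1 and WT replicate 2 held 143811696, 114430052, 83507825 and 81416981 UMIs, and 52330 cells were analysed. Median UMIs per kept cell ranged from 7698 to 8111 in all libraries except WT replicate 1, where the median was 1394. Each pair of libraries shared between 32 and 127 cell barcodes, at most 0.839% of the smaller library. Mature neutrophils had all 9 of their markers in each library, at 317 and 271 UMIs per 10000 in D3TA and 217 and 227 in WT cells, and B, T and erythroid cells had all of theirs. The same lists set the gates, so these values are no independent check of identity. In D3TA replicates 1 and 2, 83 and 38 cells lay within 20% of the granule limit that bounds the mature stage. Cells were assigned to classes by markers counted in each cell, none of which is among the 10 genes, and the values are CPM, UMIs scaled to a total of 1000000 for that class in that library. UMIs count molecules and do not grow with transcript length as read counts do, but capture can differ between genes. Intervals are exact and cover counting error only. P-values do not rest on the spread between these few mice alone, since edgeR draws each gene's spread towards that of all genes. With 2 mice against 2 an exact two-sided permutation test of 1 value cannot go below 0.33. Mature neutrophils numbered 967 and 373 in the D3TA libraries and 135 and 103 in the WT libraries. WT libraries held at most 6 cells of any earlier neutrophil stage, so levels along maturation are those of the D3TA mice.

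Glycolysis splits glucose into pyruvate in the cytosol and yields ATP without oxygen. Neutrophils have few mitochondria and draw most of their ATP from this pathway. Hexokinases trap glucose in the cell as glucose 6-phosphate, which can also enter the pentose phosphate pathway or glycogen. Hexokinase 1 is the broadly expressed isozyme, hexokinase 2 is inducible, both bind mitochondria, and hexokinase 3 lacks that binding site and is found mainly in myeloid cells. ADP-dependent glucokinase does the same reaction with ADP in place of ATP and sits at the endoplasmic reticulum.

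Of the 10 genes, 10 had a promoter in RefSeq's GRCm38.p6 table, with 15 start sites in all. The sequences below are those of the 4 glucose kinases, whose choice the results turn on, and of Ldha, which holds the most matches. Each is the 250 bases before an annotated start, read on the gene's strand. Hk1 and Ldha have 2 annotated starts each, of which the first is shown, and the second window of both holds 0 matches. Capitals mark ACGTG, the core letters of the element that hypoxia-inducible factors recognise, and AGGAAGT, letters recognised by ETS-family factors such as PU.1, both searched on both strands (CACGT and ACTTCCT on the other strand). Where CACGTG occurs the 2 strands' matches to ACGTG overlap.
Hk3, chr13:55021386-55021635, minus strand: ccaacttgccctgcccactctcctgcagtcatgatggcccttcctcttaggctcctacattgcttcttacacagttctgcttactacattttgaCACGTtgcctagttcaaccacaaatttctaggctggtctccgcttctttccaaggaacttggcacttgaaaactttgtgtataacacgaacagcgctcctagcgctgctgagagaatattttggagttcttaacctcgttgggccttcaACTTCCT
Hk2, chr6:82774455-82774704, minus strand: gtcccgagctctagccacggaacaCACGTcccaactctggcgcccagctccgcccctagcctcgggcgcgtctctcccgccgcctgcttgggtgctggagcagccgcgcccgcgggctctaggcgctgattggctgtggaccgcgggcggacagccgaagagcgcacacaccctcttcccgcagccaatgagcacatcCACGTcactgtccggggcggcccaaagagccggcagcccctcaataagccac
Hk1, chr10:62379909-62380158, minus strand: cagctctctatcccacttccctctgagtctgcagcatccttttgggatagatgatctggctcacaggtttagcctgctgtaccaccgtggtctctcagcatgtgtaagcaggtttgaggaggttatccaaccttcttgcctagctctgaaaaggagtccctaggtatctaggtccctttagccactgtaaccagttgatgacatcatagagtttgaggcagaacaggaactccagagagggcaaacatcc
Adpgk, chr9:59291322-59291571, plus strand: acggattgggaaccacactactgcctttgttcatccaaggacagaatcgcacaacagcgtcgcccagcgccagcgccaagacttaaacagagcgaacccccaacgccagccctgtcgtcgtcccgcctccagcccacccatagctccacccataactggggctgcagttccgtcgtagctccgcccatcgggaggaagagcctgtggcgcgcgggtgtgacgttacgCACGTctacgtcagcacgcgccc
Ldha, chr7:46845554-46845803, plus strand: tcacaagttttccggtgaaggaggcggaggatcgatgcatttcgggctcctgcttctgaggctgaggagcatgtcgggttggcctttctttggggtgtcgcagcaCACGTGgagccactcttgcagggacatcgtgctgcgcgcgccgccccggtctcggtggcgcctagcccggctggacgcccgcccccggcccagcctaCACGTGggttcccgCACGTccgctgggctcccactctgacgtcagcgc
ACGTG stood before 8 of the 15 start sites, of which 2 are overlapping windows of Aldoa, and in 16.6% of 32851 windows of the same length before all annotated starts. The 8 sites belong to 7 of the 10 genes, and the windows of Hk1, Pfkp and Tpi1 held 0 matches. AGGAAGT stood before 2 of the 15 start sites, those of Hk3 and Pgk1, and in 7.69% of all windows. A match is a run of letters, and whether any factor binds there was not measured.

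The 4 kinases that phosphorylate glucose followed different courses along neutrophil maturation. Adpgk was at 99 and 147 CPM in precursors of D3TA replicates 1 and 2, at 527 and 711 in cycling immature, at 789 and 1095 in noncycling immature, at 731 and 957 in transitional and at 127 and 126 CPM in mature neutrophils. It thus formed a hump, highest in the noncycling immature cells rich in specific granule transcripts, and these ranges did not overlap with those of precursors or mature cells. Hk2 was at 42.8 and 50.6 CPM in precursors, 69.4 and 77.6 in cycling immature, 83.8 and 90.3 in noncycling immature, 59.5 and 57.0 in transitional and 36.7 and 38.6 CPM in mature neutrophils of D3TA replicates 1 and 2. Its peak fell in the same stage and was much flatter than that of Adpgk.

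**Figure D1:**
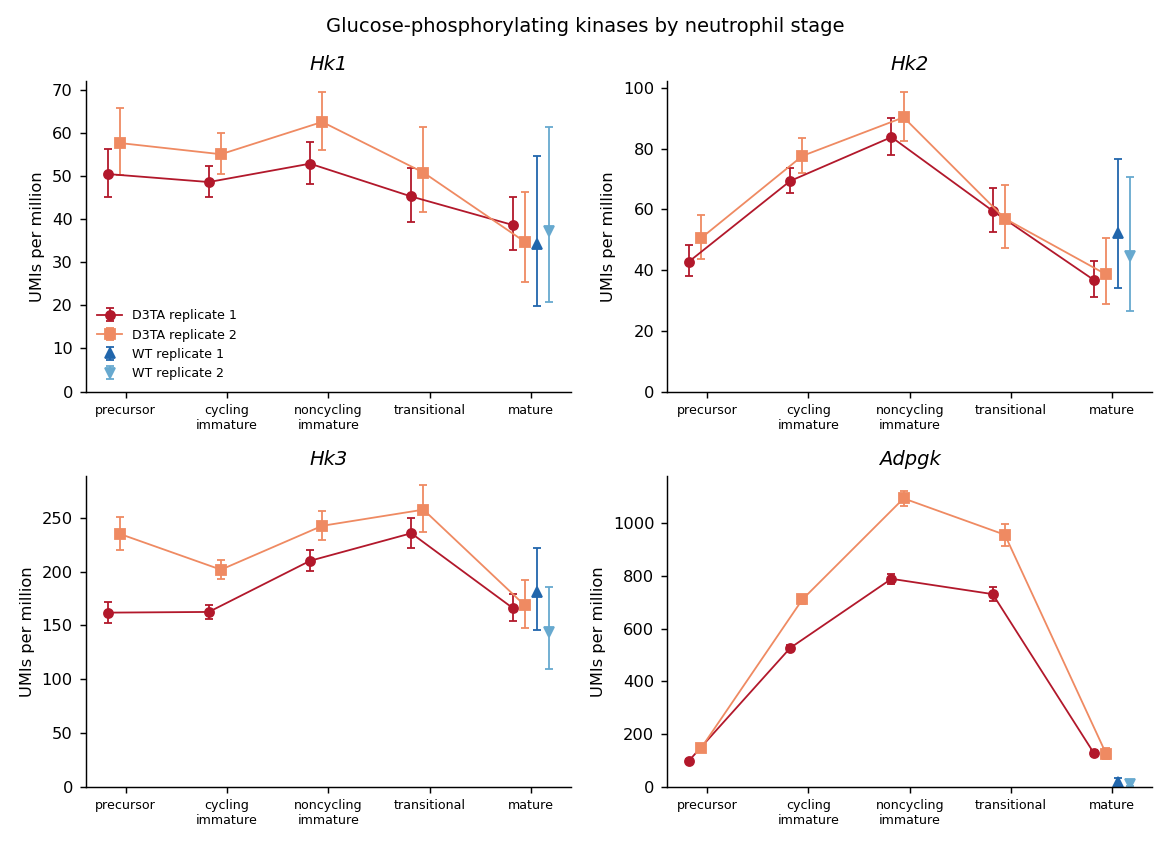
CPM (vertical axis, linear, from 0) of the 4 glucose kinases in each library by neutrophil stage (horizontal axis), with points for the libraries and bars for exact 95% counting intervals. Adpgk reached 789 and 1095 CPM in noncycling immature cells of the D3TA libraries, and WT libraries have a point for mature cells only.

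Hk3, the myeloid isozyme, was at 162 and 235 CPM in precursors, 162 and 202 in cycling immature, 210 and 243 in noncycling immature, 236 and 258 in transitional and 166 and 169 CPM in mature neutrophils of D3TA replicates 1 and 2. WT mature neutrophils held 181 and 144 CPM of Hk3, on either side of the D3TA values. In UMIs Hk1 was below Hk3 in every stage, between 45.3 and 62.6 CPM before maturity, and at 38.7 and 34.8 CPM in D3TA against 34.1 and 37.2 CPM in WT mature neutrophils. Among cells of the lineage the median UMI count per cell was 3988 and 3324 in mature neutrophils and 31329 and 33900 in precursors of D3TA replicates 1 and 2, so a steady CPM stands for fewer molecules in each later cell. Hk3 gave 70.2 and 59.8 UMIs per 100 mature cells of the D3TA libraries, against 66.7 and 56.3 in WT mature cells, and 518 and 815 UMIs per 100 precursors of the D3TA libraries.

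Tested with edgeR's quasi-likelihood test with the library as a term, 9 of the 10 genes differed between mature and noncycling immature neutrophils, 1 higher and 8 lower in mature cells, where 50.6% of all 12563 genes tested (23.1% higher and 27.6% lower) were called at a Benjamini-Hochberg adjusted p under 0.05. With library totals alone as the scaling, 3461 of all genes were higher and 2726 lower, in place of 2897 higher and 3462 lower. The median log2 fold change was -0.76 over the 10 genes and -0.07 over all genes. WT libraries entered this fit with mature cells only, so the stage differences come from the 2 D3TA mice. Adpgk had the largest fall of the 10, at -3.01 ± 0.12 on the log2 scale (SE here and below, adjusted p = 1.3e-18 by edgeR). Hk2 fell by 1.38 ± 0.13 on the log2 scale (adjusted p = 6.635e-10), Hk1 by 0.77 ± 0.14 (3.933e-05) and Hk3 by 0.59 ± 0.11 (6.873e-05), all by edgeR. These 4 calls held under each scaling and cell filter tried.

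Against precursors, mature neutrophils differed in 5 of the 10 genes, 3 higher and 2 lower, with 76.5% of all genes called by edgeR (33.8% higher and 42.7% lower). With library totals alone 6 of the 10 passed, 1 higher (Pkm) and 5 lower (Hk1, Aldoa, Tpi1, Pgk1 and Ldha), and over all genes 3511 were higher and 6305 lower in place of 4249 and 5360. As fitted none of the 3 hexokinases passed, with log2 fold changes of -0.08 ± 0.15 for Hk1, 0.12 ± 0.15 for Hk2 and 0.21 ± 0.12 for Hk3. Adpgk was higher in mature cells by 0.53 ± 0.13 (edgeR adjusted p = 0.0003975), but by 0.12 (adjusted p = 0.389) when library totals alone were used for scaling, and by 0.22 (adjusted p = 0.1218) with no filter on low counts. Library totals alone moved the median of all genes from -0.29 to -0.70 and called Hk1 lower in mature cells (-0.49, edgeR adjusted p = 0.003262). Pgk1, at -0.26 ± 0.12 as fitted, also passed as lower in mature cells with library totals alone (-0.67) and with median-ratio scaling (-0.43), and Aldoa, at -0.01 ± 0.11 as fitted, was at -0.42 with library totals alone. Cycling and noncycling immature cells, both gated on specific granule transcripts, differed in 9 of the 10 genes, 1 higher and 8 lower in cycling cells, with 51% of all genes called (25.2% higher and 25.8% lower). Adpgk was lower in cycling cells by -0.82 ± 0.10 on the log2 scale (edgeR adjusted p = 8.575e-08), Hk3 by -0.54 ± 0.10 (5.954e-05) and Hk2 by -0.47 ± 0.10 (0.0003164). With library totals alone 5 of the 10 passed, 1 higher and 4 lower, and Hk1 (-0.15, adjusted p = 0.271 by edgeR) was among those lost. The median of all genes then moved from -0.03 to 0.19, with 4157 genes higher and 2231 lower in place of 3169 and 3242.

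Isozyme choice among the hexokinases stayed with Hk3 throughout the lineage. Hk3 gave 63.4% and 68.5% of all Hk1, Hk2 and Hk3 UMIs in precursors of D3TA replicates 1 and 2, 57.9% and 60.3% in cycling immature, 60.6% and 61.3% in noncycling immature, 69.2% and 70.5% in transitional and 68.8% and 69.7% in mature neutrophils. In WT mature neutrophils the share was 67.7% and 63.7%, and the means were 69.2% ± 0.632 in D3TA and 65.7% ± 2.78 in WT (SD, n = 2 each). With Adpgk counted among the kinases, it gave 69.5% and 73.5% of the UMIs in noncycling immature cells. In mature neutrophils it gave 34.5% and 34.2% in the D3TA libraries and 6.3% and 4.2% in the WT libraries, which did not overlap.

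The later enzymes did not move as a block. Tpi1, which interconverts the triose phosphates, was at 316 and 215 CPM in precursors of D3TA replicates 1 and 2, at 139 and 129 in cycling immature, 82.1 and 81.9 in noncycling immature, 42.4 and 36.3 in transitional and 49.7 and 38.6 CPM in mature neutrophils. It was the only one of the 10 that was higher in cycling than in noncycling immature cells by edgeR (log2 fold change 0.49 ± 0.12, adjusted p = 0.0007025), and mature cells were lower than precursors by -2.15 ± 0.14 (adjusted p = 5.814e-14). Ldha, the lactate dehydrogenase subunit that turns pyruvate into lactate, was at 427 and 259 CPM in precursors, 222 and 206 in cycling immature, 322 and 327 in noncycling immature, 276 and 294 in transitional and 146 and 157 CPM in mature neutrophils of the same libraries. Its level in mature cells lay under every earlier stage, at -1.30 ± 0.15 on the log2 scale against noncycling immature cells (edgeR adjusted p = 1.392e-08) and -0.79 ± 0.15 against precursors (edgeR adjusted p = 2.37e-05).

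Pkm, the pyruvate kinase gene, held the most even course of the 10, between 421 and 623 CPM over all 5 stages of the D3TA libraries. Mature cells had 623 and 549 CPM of Pkm in D3TA and 484 and 511 CPM in WT libraries. The difference from noncycling immature cells was 0.03 ± 0.11 on the log2 scale (95% interval -0.18 to 0.24), whereas against precursors Pkm was higher in mature cells by 0.68 ± 0.11 (edgeR adjusted p = 1.574e-06). The 2 splice forms of Pkm cannot be told apart in counts per gene. Pgk1, the first ATP-yielding enzyme of the pathway, was at 283 and 244 CPM in precursors, 191 and 230 in cycling immature, 229 and 269 in noncycling immature, 273 and 323 in transitional and 168 and 163 CPM in mature neutrophils of D3TA replicates 1 and 2. Precursors and transitional cells overlapped, and mature cells were lower than noncycling immature cells (-0.75 ± 0.12, edgeR adjusted p = 7.48e-06).

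Pfkp, a phosphofructokinase that commits sugar to glycolysis, went the other way. It was at 38.7 and 62.0 CPM in mature neutrophils of D3TA and 78.3 and 44.7 CPM in those of WT libraries, against 24.3 and 25.7 CPM in noncycling immature neutrophils of the D3TA libraries, and was higher in mature cells by 0.73 ± 0.16 (edgeR adjusted p = 0.000363). Against precursors its log2 fold change was 0.38 ± 0.16 (edgeR adjusted p = 0.02724), and -0.03 (adjusted p = 0.881) with library totals alone, so that direction depends on the scaling. Aldoa, which cleaves fructose 1,6-bisphosphate, stayed between 275 and 527 CPM. Its log2 fold change of -0.29 ± 0.11 in mature against noncycling immature cells (edgeR adjusted p = 0.03234) was -0.10 with library totals alone (adjusted p = 0.458) and missed the threshold under median-ratio scaling too (adjusted p = 0.116). Aldoa, Pgk1 and Ldha have near-identical processed copies in the genome, and how reads shared with them were counted is not given in the sources used here.

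**Figure D2:**
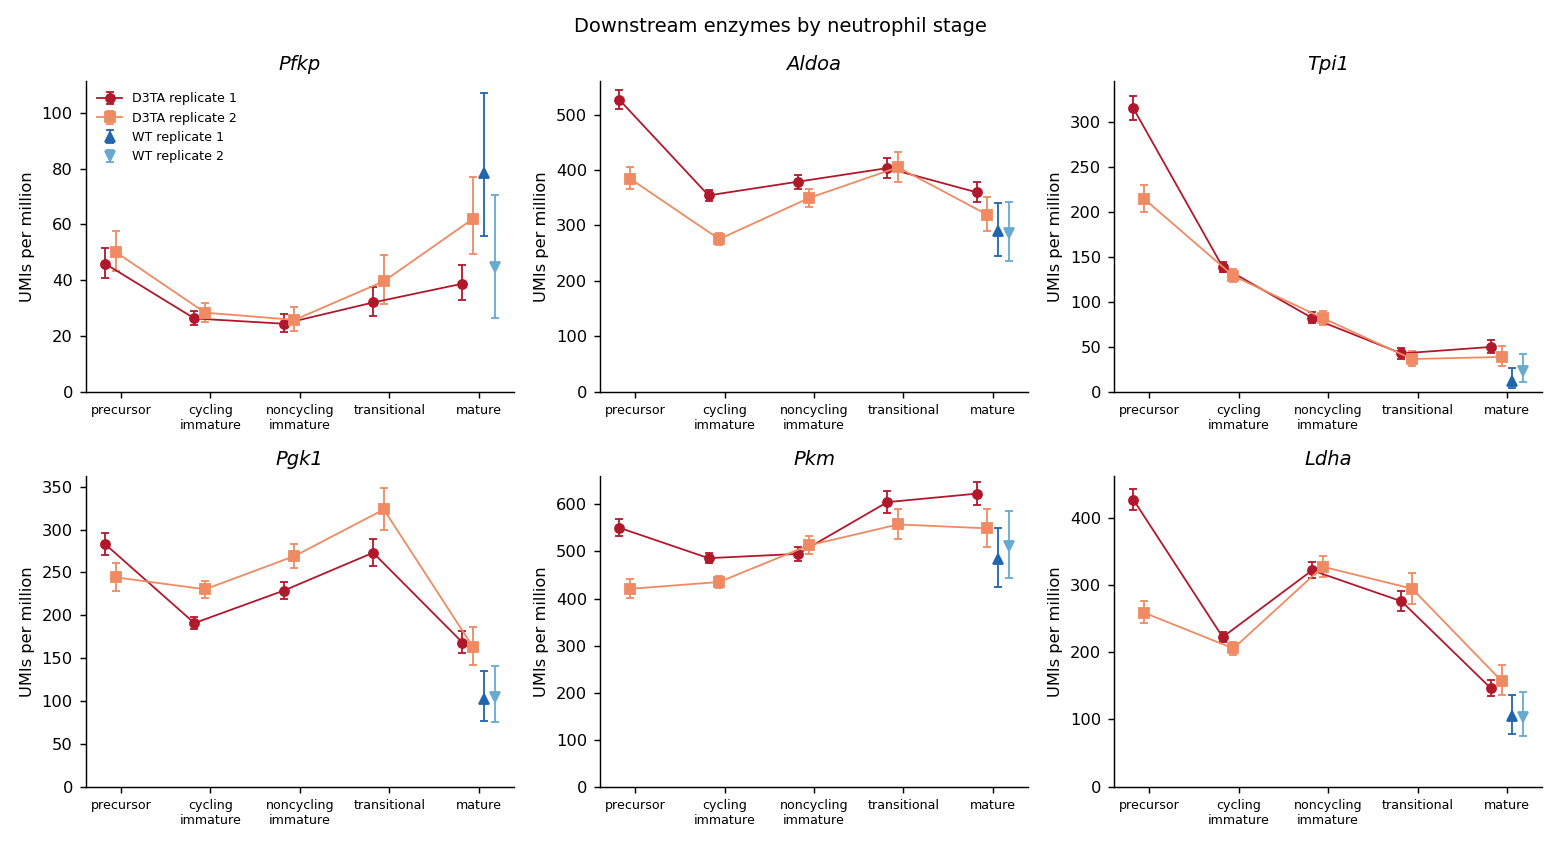
CPM (vertical axis, linear, from 0) of the 6 later enzymes in each library by neutrophil stage, with exact 95% counting intervals as bars. Tpi1 stood at 49.7 and 38.6 CPM in mature cells and 316 and 215 CPM in precursors of the D3TA libraries, while Pkm stayed between 421 and 623 CPM.

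The rest of glucose metabolism was read from 7 lists of 61 genes. Of 5 glucose and lactate carriers, 4 were higher and 0 lower in mature than in noncycling immature neutrophils by edgeR under each scaling tried (median log2 fold change 1.88), beside 23.1% of all genes higher and 27.6% lower. Slc2a6, a lysosomal hexose carrier, was at 90.4 and 70.4 CPM in mature and 0.986 and 0.734 CPM in noncycling immature cells of the D3TA libraries (log2 fold change 6.33 ± 0.26). Slc2a1, the glucose carrier GLUT1, had a log2 fold change of 3.48 ± 0.17, Slc16a3, the lactate exporter MCT4, 1.88 ± 0.11, and Slc2a3, the carrier GLUT3, 1.08 ± 0.10. Against precursors, where 33.8% of all genes were higher and 42.7% lower, the same 4 carriers were higher, Slc2a3 by 5.83 ± 0.13, and Slc16a1, another lactate carrier, was lower by -3.68 ± 0.38.

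The counts of the other lists in the same comparison stand beside the same shares of all genes, 23.1% higher and 27.6% lower, a balance that turned to 3461 genes higher and 2726 lower with library totals alone. Among the 9 other glycolytic enzymes tested, 1 was higher and 5 lower in mature than in noncycling immature cells (4 lower with library totals alone). Pgam1, the phosphoglycerate mutase gene, was at 73.2 and 66.6 CPM in mature and 227 and 202 CPM in noncycling immature cells (log2 fold change -1.80 ± 0.12), and Gpi1, which makes fructose 6-phosphate, was lower by -0.92 ± 0.10. Of 7 pentose phosphate genes 1 was higher, Taldo1 (transaldolase, 1.23 ± 0.10), and 5 were lower under all 3 scalings, among them Rpe (-3.14 ± 0.16) and Tkt (transketolase, -1.93 ± 0.11). Glycogen genes had 0 higher and 5 lower of 8, such as the synthase Gys1 (-2.26 ± 0.15), with 1 higher under median-ratio scaling and 2 higher when library totals alone were used. Among 8 regulators of flux 2 were higher, Hif1a, the oxygen-regulated subunit of hypoxia-inducible factor (2.48 ± 0.13), and Pfkfb4 (0.81 ± 0.10), and 2 were lower (1 under the other scalings), of which Pfkfb3 had -0.98 ± 0.12. Of 6 genes of pyruvate entry into mitochondria 1 was higher (2 under the other scalings) and 4 were lower, among them the pyruvate carrier subunit gene Mpc2 (-1.81 ± 0.12). Of 10 targets of that factor outside glycolysis 5 were higher, such as Bnip3 (2.43 ± 0.23), and 2 were lower (1 under the other scalings), with Ero1l at -3.14 ± 0.16.

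Other cell classes of the spleen used other hexokinases. In B cells Hk1 gave most hexokinase UMIs, and Hk3 gave 7.7% and 8.0% in the D3TA and 3.4% and 3.5% in the WT libraries. T cells had 5.0% and 4.7% Hk3 in D3TA and 1.3% and 1.0% in WT libraries, and in erythroid cells Hk1 gave at least 98.4% in every library. Red pulp macrophages were the class most like neutrophils in this respect, with 62.9% and 63.9% Hk3 in D3TA and 75.3% and 71.4% in WT libraries. Classical monocytes differed from them, with Hk3 at 162 of 454 and 61 of 176 hexokinase UMIs in D3TA and 5 of 25 and 12 of 56 in WT libraries. There Hk2 had the most UMIs in 4 of 4 libraries, 174 and 77 in D3TA and 14 and 30 in WT. The counting intervals of the Hk2 and Hk3 shares overlapped in all libraries except WT replicate 2, as in D3TA replicate 1 (38.3% and 35.7%). The 10 neutrophil lineage markers summed to 46.5 and 20.4 UMIs per 10000 in D3TA and 7.93 and 5.13 in WT monocytes, and their part in the Hk3 values was not tested. NK cells had only 12 hexokinase UMIs in D3TA replicate 2, all of Hk1, an exact 95% lower limit of 73.5%.

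**Figure D3:**
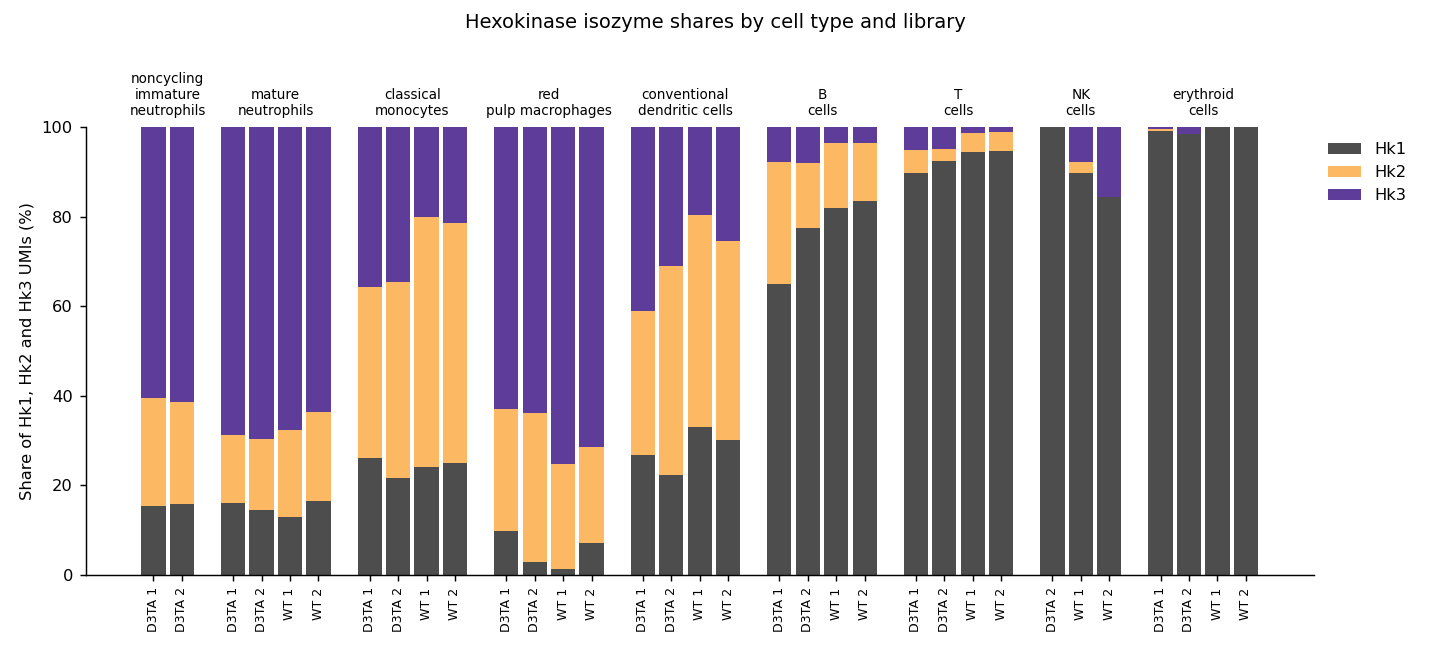
Share of Hk1, Hk2 and Hk3 among their summed UMIs (vertical axis, percent) in each library, by cell class from left to right, with D3TA bars left of WT bars. Hk3 takes 60.6% to 69.7% in noncycling immature and mature neutrophils of the D3TA libraries and at most 8.0% in B and T cells, and erythroid bars are almost wholly Hk1.

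By level, Hk1 was highest in erythroid cells, with 178 and 235 CPM in D3TA and 181 and 195 CPM in WT libraries, and the nearest class measured in all 4 libraries, T cells, had 71.7 and 66.9 CPM in D3TA and 66.2 and 71.5 CPM in WT libraries. Hk2 was at 51.1 and 62.0 CPM in D3TA and 91.0 and 96.8 CPM in WT classical monocytes, a range that overlapped those of neutrophil stages. In T cells Hk2 was between 2.05 and 4.07 CPM, and erythroid cells of D3TA replicate 2 and both WT libraries had none. A count of 0 there does not show absence, since the 70 and 204 hexokinase UMIs of WT erythroid cells allow Hk2 shares of up to 5.13% and 1.79%. Basophils or mast cells of D3TA replicate 1, the 1 library with enough of them, had the highest single values of Hk2 (211 CPM), Pfkp (397 CPM) and Ldha (664 CPM) among all sums, and for Hk3 they matched transitional neutrophils of D3TA replicate 2 (both 258 CPM).

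Pfkp was otherwise highest in NK cells, at 190 CPM in D3TA replicate 2 and 179 and 169 CPM in the WT libraries, above T cells (125 and 116 CPM in D3TA, 84.1 and 98.1 CPM in WT). Erythroid cells held 1.63 and 0.938 CPM of Pfkp in D3TA and 7.75 and 0 CPM in WT libraries. Of their phosphofructokinase UMIs, Pfkm, the muscle isoform, gave 74.7% and 74.5% in D3TA and 25% (2 of 8 UMIs) and 85.7% in WT libraries. Pfkl gave between 21.7% and 23.6% in D3TA and between 14.3% and 37.5% in WT libraries. Erythroid cells also had the lowest Pkm, with 14.7 and 3.77 CPM in D3TA and 10.3 and 0.957 CPM in WT libraries, and red cells use the separate gene Pklr.

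**Figure D4:**
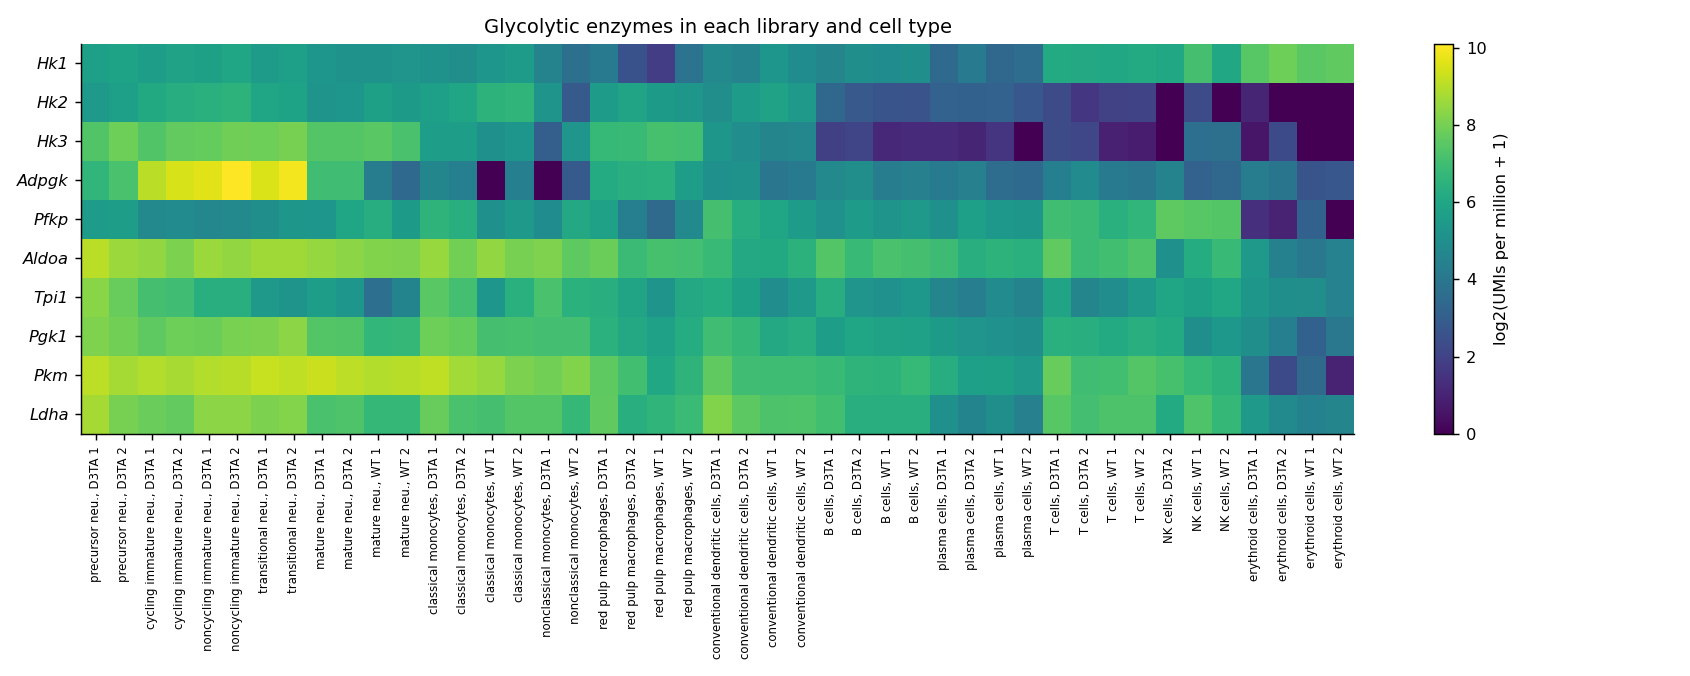
Level of each of the 10 genes (rows) as log2(CPM + 1), on a colour scale, by library and cell class (columns, neutrophil stages first). Drawn are sums of at least 20 cells, except that of basophils or mast cells. Adpgk is brightest in immature and transitional neutrophils of the D3TA libraries, at up to 1095 CPM, and Hk1 in erythroid cells, at up to 235 CPM.

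Mature neutrophils were then tested against 3 other classes in 1 edgeR fit over all classes. Against B cells 9 of the 10 genes were higher and 0 lower, with 63.5% of all 14998 genes called (25.8% higher and 37.7% lower), and the median log2 fold change was 1.71 over the 10 genes and -0.50 over all. Hk3 was higher by 6.77 ± 0.31 (edgeR adjusted p = 8.217e-21), Hk2 by 3.19 ± 0.23 (3.333e-15) and Pkm by 2.85 ± 0.22 (2.793e-14), whereas the calls of Hk1 (0.89 ± 0.22) and Pfkp (0.89 ± 0.27) were lost with library totals alone (0.35 and 0.41). The Hk1 call was also lost without D3TA replicate 1 (0.55), and that of Pfkp without WT replicate 1 (0.45) or D3TA replicate 2 (0.60). Against T cells 6 were higher and 0 lower, with 64.1% of all genes called (25.8% higher and 38.3% lower). Hk3 (6.75 ± 0.32), Hk2 (4.35 ± 0.25), Pkm (2.32 ± 0.22), Aldoa (1.66 ± 0.19) and Pgk1 (1.37 ± 0.20) passed under each scaling. Library totals alone added Hk1 (-0.91) and Pfkp (-0.99) as lower in mature neutrophils, and median-ratio scaling added Tpi1 (0.58) and Ldha (0.48) as higher. Library totals alone moved the median of all genes to -1.05 against B cells (2861 higher and 7393 lower, in place of 3865 and 5660) and to -1.13 against T cells (2688 higher and 7828 lower, in place of 3866 and 5743).

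Against classical monocytes 6 of the 10 passed, 5 higher and 1 lower in mature neutrophils, with 55.1% of all genes called (25.6% higher and 29.5% lower). Hk3 was higher by 2.67 ± 0.31 (edgeR adjusted p = 1.722e-09) and Tpi1 lower by -1.04 ± 0.27 (edgeR adjusted p = 0.001222), under each scaling. Hk1 (0.80 ± 0.25), Aldoa (0.76 ± 0.19) and Pkm (1.11 ± 0.21) were higher as fitted, but at 0.05, 0.06 and 0.43 with library totals alone they did not pass, and Hk2 (-0.72) and Pgk1 (-0.43) then passed as lower. Hk1 also missed the threshold without D3TA replicate 1 (0.58) or D3TA replicate 2 (0.44), and Aldoa without D3TA replicate 2 (0.35). Library totals alone moved the median of all genes from -0.05 to -0.73. With them the calls over all genes were 2306 higher and 6510 lower, against 3844 higher and 4421 lower as fitted. Adpgk was called higher in mature neutrophils against all 3 classes (2.11 to 2.83 on the log2 scale), a pooled value over genotypes. In WT libraries Adpgk had 18.1 and 9.93 CPM in mature neutrophils, no higher than the 18.4 and 20.3 CPM of WT B cells.

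Between genotypes, the sum over all spleen cells was higher in D3TA than in WT libraries for 4 of the 10 genes and lower for 0, where edgeR called 6.08% of 18344 genes (5.7% higher and 0.382% lower). The median log2 fold change was 1.08 over the 10 genes and 0.00 over all. Hk3 was at 72.8 and 59.3 CPM in D3TA and 5.69 and 4.71 CPM in WT spleens (log2 fold change 3.76 ± 0.24, adjusted p = 0.005774 by edgeR). Adpgk was at 198 and 193 CPM in D3TA and 20.6 and 21.9 CPM in WT spleens (3.29 ± 0.18, adjusted p = 0.005656 by edgeR). Neither gene's ranges overlapped, and both calls held without each library in turn.

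Hk2 followed with 31.2 and 24.9 CPM in D3TA and 8.51 and 7.73 CPM in WT spleens (1.89 ± 0.22, edgeR adjusted p = 0.01513, and 0.09825 without WT replicate 2). Pgk1 was at 134 and 116 CPM in D3TA and 63.5 and 64.2 CPM in WT spleens (1.06 ± 0.19, edgeR adjusted p = 0.04042, and 0.3906 without WT replicate 1, 0.3691 without WT replicate 2 and 0.05404 with a replicate block). Hk3 made up 47.3% and 43.1% of hexokinase UMIs in D3TA and 10.3% and 8.7% in WT spleens. Noncycling immature neutrophils made up 7.67% and 5.40% of cells in D3TA and 0.00449% and 0.0781% in WT libraries, and mature neutrophils 8.20% and 3.53% in D3TA and 0.606% and 1.34% in WT libraries. In a sum over the spleen more cells of a type and more RNA per cell cannot be told apart.

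Within mature neutrophils 1 of the 10 genes passed, Adpgk, where edgeR called 0.984% of 6099 genes (0.836% higher and 0.148% lower, 51 and 9 genes, or 52 and 41 with library totals alone). Adpgk was at 127 and 126 CPM in D3TA and 18.1 and 9.93 CPM in WT cells, from 520, 166, 9 and 4 UMIs, and the 2 genotypes did not overlap. Its log2 fold change was 3.36 ± 0.35 (edgeR adjusted p = 0.0005823), and the call held without each library in turn. Hk1 (0.29 ± 0.33), Hk2 (-0.14 ± 0.30) and Hk3 (0.26 ± 0.22, 95% interval -0.16 to 0.69) did not pass. Hk2 was at 36.7 and 38.6 CPM in D3TA and 52.2 and 44.7 CPM in WT cells, without overlap. CPM are scaled by library totals, under which the median log2 fold change of all genes here was -0.21. Tpi1 was at 49.7 and 38.6 CPM in D3TA and 12.1 and 22.3 CPM in WT cells (1.65 ± 0.42, edgeR adjusted p = 0.09149), and Pgk1 at 168 and 163 CPM in D3TA and 102 and 104 CPM in WT cells (0.91 ± 0.23, edgeR adjusted p = 0.08857). Both missed the threshold here and passed without D3TA replicate 2 (edgeR adjusted p = 0.003582 for Tpi1 and 0.009765 for Pgk1) and with no filter on low counts (0.003595 and 0.01445).

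Transcripts of earlier stages differed between these mature cells too. The 9 specific granule markers summed to 19.97 and 19.79 UMIs per 10000 in D3TA and 0.763 and 1.12 per 10000 in WT mature neutrophils, with 9 of 9 detected in both D3TA libraries and all but Fcnb in both WT libraries. The 6 azurophil granule markers summed to 1.89 and 2.13 per 10000 in D3TA and 0.0803 and 0.124 in WT cells, and Elane, Mpo, Ctsg and Ms4a3 were at 0 in both WT libraries. Adpgk moved with the specific granule markers inside the D3TA libraries, and its relation to the azurophil markers in these cells was not tested. Mature cells with 30 to 60 granule UMIs per 10000 held 381 and 343 CPM of Adpgk in D3TA replicates 1 and 2, those with 15 to 30 held 102 and 111 CPM, and those with 5 to 15 held 51.5 and 64.3 CPM.

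At fewer than 5 granule UMIs per 10000, Adpgk was at 5.92 and 11.9 CPM in 43 and 28 D3TA cells and at 18.6 and 7.98 CPM in 128 and 96 WT cells, with overlapping ranges and 1 Adpgk UMI in each D3TA library. WT libraries held 7 cells each above that limit and 0 above 15. Limited to cells under 15 granule UMIs per 10000 in all 4 libraries, the log2 fold change of Adpgk was 2.03 ± 0.42 and did not pass (edgeR adjusted p = 0.0534). Of the cells so limited, 376 of 419 and 145 of 173 in D3TA had 5 to 15, against 7 of 135 and 7 of 103 in WT. The limit thus left granule content unequal between the genotypes. Per 1000 granule UMIs, Adpgk had 63.7 and 63.5 UMIs in D3TA and 237 and 88.9 in WT mature neutrophils, the WT values from only 38 and 45 granule UMIs and 9 and 4 Adpgk UMIs. This ratio is large wherever granule transcripts are near 0, as in B cells, at 904 and 1607 in WT and 56.0 and 53.0 in D3TA libraries. It therefore cannot compare Adpgk between the genotypes. Noncycling immature neutrophils of the D3TA libraries had 8.15 and 12.0, so the ratio was not the same in both stages. Hk3 varied far less over these bins, from 94.8 to 233 CPM in the D3TA libraries. Pgk1 was at 242 and 292 CPM in D3TA cells with 30 to 60 granule UMIs per 10000 and at 139 and 125 CPM with 5 to 15. At fewer than 5 it was at 154 and 94.8 CPM in D3TA and 97.3 and 104 CPM in WT cells, with overlapping ranges. Under the limit of 15 the log2 fold change was 0.57 ± 0.26 for Pgk1 (edgeR adjusted p = 0.473) and 1.68 ± 0.43 for Tpi1 (edgeR adjusted p = 0.138).

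**Figure D5:**
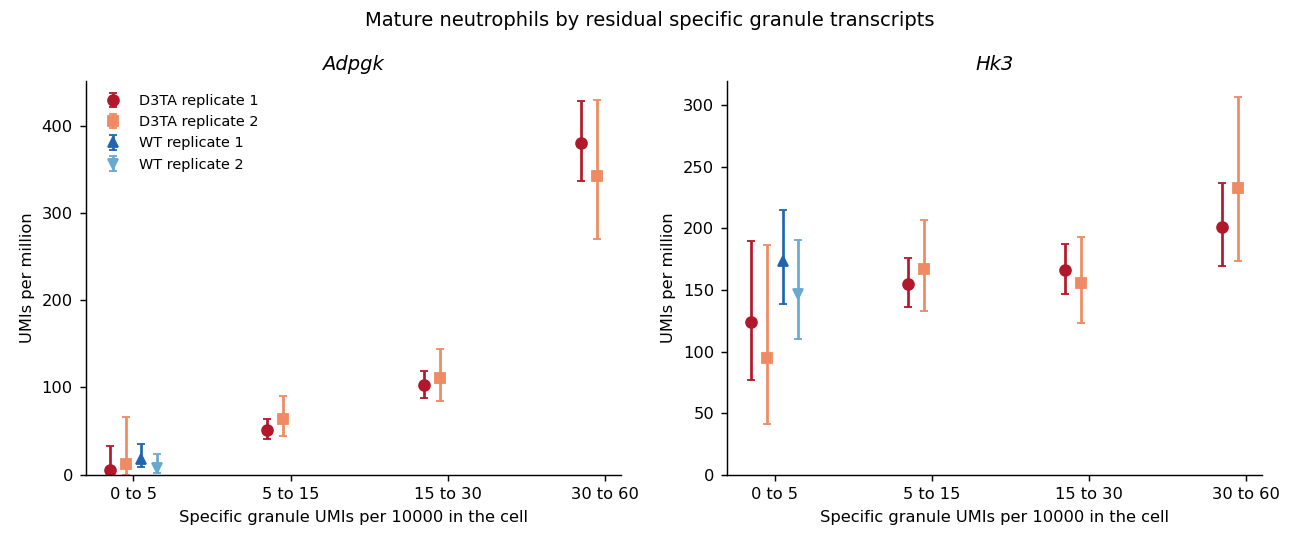
Adpgk (left) and Hk3 (right) in mature neutrophils as CPM (vertical axis, linear, from 0), by the cell's specific granule UMIs per 10000 (horizontal axis, 4 bins), with exact 95% counting intervals as bars. Adpgk reaches 381 and 343 CPM in the highest bin of the D3TA libraries and 5.92 and 11.9 CPM in the lowest, where WT cells have 18.6 and 7.98 CPM, and bins of WT cells with fewer than 20 cells are not drawn.

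In classical monocytes 0 of the 10 genes passed edgeR's test, against 5.17% of 8062 genes (3.56% higher and 1.61% lower). At an unadjusted p under 0.05 were 3 of the 10 and 1394 of the 8062 genes. With no filter on low counts 1 of the 10 was called. Tpi1 was at 181 and 136 CPM in D3TA and 39.0 and 83.9 CPM in WT monocytes (log2 fold change 1.23 ± 0.39, edgeR adjusted p = 0.0759). Hk2 lay lower in the D3TA monocytes than in the WT ones, with the CPM given above and no overlap (-0.80 ± 0.36, edgeR adjusted p = 0.2526). The WT libraries held only 23 and 20 such monocytes, with 14 and 30 Hk2 UMIs. The 12 cycling markers summed to 34.8 and 33.8 UMIs per 10000 in D3TA and 0.130 and 2.16 in WT monocytes, where 12 of 12 were detected in both D3TA, 2 in WT replicate 1 and 10 in WT replicate 2. Their part in these values was not tested.

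B cells had 0 of 10 genes called, as edgeR called 0 of 15179 genes (0%), with 794 genes and 2 of the 10 at an unadjusted p under 0.05 and 171 genes called by DESeq2. T cells likewise had 0 of 10 with 0.0588% of genes called, and erythroid cells 0 of 7 tested with 0.18% called (0.12% higher and 0.06% lower, 8 and 4 genes, or 8 and 2 with median-ratio scaling and 33 and 13 with library totals alone). Hk3 was at 4.02 and 3.43 CPM in D3TA and 0.881 and 0.764 CPM in WT T cells (2.16 ± 0.41, edgeR adjusted p = 0.5301), and at 2.76 and 3.28 CPM in D3TA and 1.22 and 1.35 CPM in WT B cells. Neutrophil markers were higher in the same sums: the 10 lineage markers summed to 36.5 and 19.5 UMIs per 10000 in D3TA and 1.31 and 1.22 in WT T cells, and to 21.9 and 18.1 in D3TA and 2.79 and 1.02 in WT B cells. All 10 were detected in both D3TA libraries of each class, and also in both WT libraries of B cells, with 9 in both WT libraries of T cells. Adpgk was at 17.9 and 14.1 CPM in D3TA and 5.17 and 5.74 CPM in WT erythroid cells (1.39 ± 0.61, edgeR adjusted p = 0.9223), where the neutrophil markers summed to 30.4 and 11 UMIs per 10000 in D3TA and 1.01 and 0.354 in WT libraries. The part of such RNA in the Hk3 and Adpgk values was not tested.

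The difference between the genotype effects in mature neutrophils and B cells was itself tested, and 1 of the 10 genes passed, with 1.25% of 14374 genes called (0.536% higher and 0.71% lower, 77 and 102 genes, or 48 and 168 with library totals alone). For Adpgk the effect was larger in mature neutrophils by 2.82 ± 0.49 on the log2 scale (edgeR adjusted p = 4.517e-06). With mature cells under 15 granule UMIs per 10000 it was 1.49 ± 0.59 and did not pass (edgeR adjusted p = 0.377). Granule content still differed between the genotypes under that limit.

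Of the 7 lists, those with higher members in D3TA spleens as a whole were glycogen metabolism with 4 of 8 (3 with library totals alone), pentose phosphate genes with 3 of 7, targets of hypoxia-inducible factor with 3 of 10, carriers with 2 of 5, regulators with 1 of 8 and other glycolytic enzymes with 1 of 12. Genes of pyruvate entry into mitochondria had 0 of 7, and 0 genes of any list were lower. Over all genes 5.7% were higher and 0.382% lower. Pygl, the liver-type glycogen phosphorylase, had a log2 fold change of 3.37 ± 0.29, G6pdx, the entry enzyme of the pentose phosphate pathway, 2.34 ± 0.19, Slc16a3 2.83 ± 0.34 and Vegfa 3.49 ± 0.26. Without WT replicate 2, G6pdx (edgeR adjusted p = 0.0523) and Slc16a3 (0.06023) missed the threshold. Within mature neutrophils 1 gene of all the lists passed, Hif1a. It was at 221 and 238 CPM in D3TA and 116 and 96.8 CPM in WT cells (1.32 ± 0.22, edgeR adjusted p = 0.01437), and missed the threshold without WT replicate 1 (0.161) and without WT replicate 2 (0.365). In classical monocytes, B cells, T cells and erythroid cells edgeR, as fitted, called 0 genes of these lists.

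Likeness was measured as Pearson's r of log2(CPM + 1) over 46 sums of library and class, among 6623 genes with a mean of at least 20 CPM, and is a description since sums of 1 mouse share a library. The 4 genes most like Hk3 were Clec4a2 (r = 0.911), Sort1 (0.909), Fes (0.908) and Itpripl2 (0.906). For Hk2 they were Csf2rb (0.908), Clec12a (0.895), Spi1 (0.885), which encodes the myeloid factor PU.1, and Igsf6 (0.865). Hk1 was matched best by Ago2 (0.857), Rbm38 (0.838), Gtpbp1 (0.803) and Lbr (0.785), and Ldha by Pfn1 (0.905), Tpm3 (0.899), Mapkapk3 (0.897) and Plcb2 (0.891). Adpgk, added after its values were seen, was matched best by Itgb2l (0.866), Inhba (0.856), Prom1 (0.853) and the granule gene Ngp (0.824), of which Itgb2l and Ngp are among the 9 specific granule markers used for gating.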

How the data were processed

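Single-cell libraries of spleen from 2 D3TA and 2 WT mice were analysed, with 10000 cells targeted per library per the labels. The deposited values are UMI counts per gene and cell, made by the authors with Cell Ranger (per the file headers) on mm10 (per the submitters' processing notes). Whether introns were counted, and which annotation release was used, is not given in the sources used here.

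Barcodes with at least 500 UMIs, 250 genes and at most 10% mitochondrial UMIs were kept (53945 of 64410), and Scrublet in scanpy 1.11.5 removed 1615 doublets at an expected 6%. In WT replicate 1 its automatic threshold marked 0 cells and the threshold averaged over the other libraries was applied (1.47% marked). Cells were put into 16 classes by summed markers, with stage limits chosen after seeing the score distributions. UMIs were summed per library and class of at least 20 cells and tested with edgeR 4.0.16 in R 4.3.3 (TMM scaling, filterByExpr, quasi-likelihood test, Benjamini-Hochberg adjusted p under 0.05 over all genes). Stage and class fits had the library as a term. The genotype fits had no replicate block, since libraries with the same number did not deviate together. Alternatives were DESeq2 1.42.0, median-ratio scaling, no low-count filter, stricter cell filter and gate, doublets kept, a replicate block and each replicate left out. Scaling by library totals alone, a lower granule limit and a crossed block were added after seeing the data.

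The script was tested on simulated counts. The 10 genes and the lists were chosen with earlier results of these data known. The 10 genes are always named, and from each list at most 4 called genes per direction with the largest fold change.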

Additional observations from a re-analysis of the deposited data

Results flagged for a closer look

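The D3TA effect on Adpgk differed between mature neutrophils and B cells by 2.82 ± 0.49 on the log2 scale in the interaction fit (edgeR adjusted p = 4.517e-06), with both D3TA libraries above both WT libraries in mature neutrophils. Transcripts of the granule stage differed between the same mature cells, and their part in the value was not tested beyond the granule limits given above.

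Hk2 lay above both WT libraries in both D3TA libraries in B cells (9.75 and 6.02 CPM in D3TA, 5.23 and 4.93 CPM in WT) and below them in classical monocytes (51.1 and 62.0 CPM in D3TA, 91.0 and 96.8 CPM in WT). The WT monocyte values rest on 14 and 30 Hk2 UMIs in 23 and 20 cells. Complete separation of 2 libraries from 2 has a probability of 0.33 where nothing differs. In mature neutrophils Hk2 also lay below both WT libraries in both D3TA libraries (36.7 and 38.6 CPM in D3TA, 52.2 and 44.7 CPM in WT). The WT values there are 26 and 18 UMIs. CPM are scaled by library totals, under which the median log2 fold change of all genes in mature neutrophils was -0.21. As fitted, the Hk2 effect there was -0.144 ± 0.305. The fitted effects in B cells and classical monocytes were 1.5 apart on the log2 scale, and this difference was not tested. None of these effects passed by itself.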

How the results depend on the processing

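Genotype counts rested on 2 mice a group. Calls over all genes in whole spleen, mature neutrophils and B cells moved too under several of these settings, as given at the end of this section. The counts that follow are therefore not read as particular to the 10 genes. The genes called among the 10 in whole spleen were 7 by DESeq2, 3 with the replicate block and 2 to 9 with a library left out (2 without WT replicate 2, 9 without D3TA replicate 2). In mature neutrophils the count was 3 with no low-count filter, 3 with a crossed block, 0 with the lower granule limit and 1 to 5 with a library left out (5 without D3TA replicate 2). Classical monocytes had 1 with no low-count filter, 1 with a crossed block and 0 to 3 with a library left out, and B cells 0 to 3, each highest without D3TA replicate 2. The difference between mature neutrophils and B cells had 0 with the lower granule limit and 1 to 2 with a library left out. Without 1 library, Hk2 in mature neutrophils ranged from -0.241 to 0.0029 and Pfkp from -0.46 to 0.37 on the log2 scale. With library totals alone 5 genes passed between cycling and noncycling immature cells, Pfkp turned to -0.0268 against precursors and G6pdx to -0.0468 against classical monocytes. The cause was not tested. A replicate block changed no call of the 10 genes other than Pgk1 in whole spleen.

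The mean Hk3 share moved by more than the spread between libraries under these settings. The stricter cell filter gave 55.8% in D3TA macrophages and 6.74% in D3TA and 3.34% in WT B cells. Keeping doublets gave 8.20% in D3TA B cells and 5.24% in D3TA T cells. The stricter gate gave 60.2% in noncycling immature, 68.3% in transitional and 70.2% in mature D3TA neutrophils, 70.7% in mature WT neutrophils, 36.9% in D3TA monocytes, 66.5% in D3TA macrophages, 29.8% in WT dendritic cells, 7.26% in D3TA and 2.93% in WT B cells, 2.54% in D3TA plasma cells and 0.940% in WT T cells.

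Over all genes, whole spleen had 1116 calls as fitted, 2446 by DESeq2, 1908 with a crossed block and 5534 without D3TA replicate 2. Mature neutrophils had 60 as fitted, 297 with no low-count filter, 31 with the stricter gate and 117 with the replicate block, which shares only numbers (correlation 0.10 in mature neutrophils and -0.14 in whole spleen). B cells had 3389 without D3TA replicate 2 in place of 0, and T cells 125 by DESeq2 in place of 8. Stage contrasts without 1 D3TA library, and WT monocytes under stricter filters, were not run because too few sums remained. WT mature neutrophils gave 9 and 4 Adpgk UMIs, which limits that fold change.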
